A study of Mus musculus with 9 samples.

Results

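Tyr-GTA tRNA fragments are short RNAs whose sequence comes from the tRNAs that carry tyrosine and read codons with the anticodon GTA (written as DNA). They were selected from 9 alignment tables of mouse serum small RNA: a distinct read sequence was a member when every one of its alignments lay on a mature Tyr-GTA tRNA or on its unspliced precursor. The rule found 781 distinct sequences with 10782 reads, which is 1.94% of the 555585 tRNA-aligned reads and 781 of the 41240 distinct sequences in all libraries. Mature tRNA accounted for 604 of these sequences with 10397 reads and precursors for 177 sequences with 385 reads, and the 2 kinds are kept apart below. A further 17 sequences with 35 reads also aligned to other tRNA families and were not members. The rule used only where a read aligned, but the choice of the family was not blind to levels: a lower level of its most abundant fragment and of one variant of that fragment with SalB was known from an earlier look at these data, so those values are given as a description without a test.

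The mice fall into 3 groups of 3 libraries each, all from blood serum, all labelled week 20 and all carrying the label atherosclerosis. In the first group the mice had a high fat diet with SalB (salvianolic acid B, a polyphenol extracted from danshen root), in the second a high fat diet, and in the third a normal diet. The titles of the normal diet libraries carry C57, the name of a mouse strain. For the other 2 groups the sources used here give no strain, for no group do they give a genotype or age, and the dose and timing of SalB are not given either, so diet and any difference of strain cannot be told apart in comparisons with normal diet. Nothing states whether the libraries of a group came from separate animals, and p-values here cover only their spread, which may be technical. Serum holds RNA that left many tissues, and a change in release and a change in the cells that release cannot be told apart.

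The libraries held 62258, 156333 and 40134 tRNA reads with SalB, 55465, 28191 and 44415 on high fat diet, and 43007, 31058 and 94724 on normal diet. The second SalB library stood apart from the other SalB libraries in depth and in most values below, and results that rest on it are given with its own value. Pairs of libraries of one group differed with a chi-square of 2.30 to 31.0 per degree of freedom over sequences, a measure that covers counting error only and is raised by amplification of the same molecule, so it does not show that they are separate animals. No pair was alike within counting error, and each library was counted once.

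A tRNA gene is copied as a precursor with a leader and a trailer that are cut away, after which the bases CCA are added to the 3′ end, where the amino acid is later attached. Genes for tyrosine tRNA also carry a short intron next to the anticodon, which a splicing endonuclease removes and a ligase closes. The first anticodon base is exchanged for queuosine, and the adenosine of the T-loop commonly bears a methyl group (m1A) that can stop or mislead reverse transcriptase. Fragments that keep the CCA end and begin in the T-loop are known as tRF-3, in a shorter and a longer form. Fragments that carry the 5′ end and stop at the anticodon are known as 5′ tiRNAs.

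The mature references met in the alignments were 5 isodecoders, which are tRNAs with the same anticodon and a different body. They are shown because the fragments below can be told apart only at the positions where these bodies differ. Rebuilt from the alignments, 4 of them read as follows, with the anticodon, positions 58 and 59 of the T-loop and the CCA end in capitals.
Tyr-GTA-1-1: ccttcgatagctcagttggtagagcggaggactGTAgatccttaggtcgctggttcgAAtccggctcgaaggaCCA
Tyr-GTA-2-1: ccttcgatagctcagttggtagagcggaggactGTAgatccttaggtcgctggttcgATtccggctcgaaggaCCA
Tyr-GTA-3-1: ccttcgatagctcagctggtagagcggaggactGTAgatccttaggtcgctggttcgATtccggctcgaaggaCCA
Tyr-GTA-4-1: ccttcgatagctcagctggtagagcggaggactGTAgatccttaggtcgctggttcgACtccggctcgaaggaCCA

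Counted from 1 at the 5′ end of the 76 bases, isodecoder 2-1 differs from 1-1 by A59T, 3-1 from 1-1 by T16C and A59T, and 4-1 from 1-1 by T16C and A59C. Isodecoder 5-1 differs from 1-1 by A59G over the bases that reads covered, and 11 of its bases were covered by none. A 3′ fragment that begins at position 60 or later is therefore the same in all 5 isodecoders. One that begins at 59 or earlier is assigned to its source through base 59. Each of A, C, G and T at 59 belongs to an isodecoder, so a misread base there would count as another isodecoder. RefSeq (GRCm38.p6) lists 10 nuclear mouse Tyr-GTA genes, with 2 on chromosome 3, 1 on chromosome 5, 6 on chromosome 13 and 1 on chromosome 14. Among those on chromosome 13, n-TYgta3 lies at chr13:23425646-23425734 and n-TYgta8 at chr13:23467076-23467165. The genes exceed the mature body by 13 to 20 bases, which is the intron. The alignments name isodecoders and not these genes, and no isodecoder is assigned to a gene here.

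Mature Tyr-GTA reads were almost all pieces of the 3′ end. Reads that ended within the CCA made up 9850 of the 10397 (94.7%), reads that began at position 1 made up 271, and internal reads 276. Of the 3′ reads, 9171 (93.1%) began at just 3 positions: 3388 at position 60, 2945 at position 55 and 2838 at position 59. The ends were as narrow, since 70.9% of mature reads ended at position 76, the last base of the CCA, and 22.3% at position 75. The lengths followed from these cuts: 17 bases (32.5% of mature reads) and 18 bases (23.8%) for the short form, and 21 bases (14.5%) and 22 bases (13.7%) for the long form.

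The leading fragments are shown here with their reads over all 9 libraries, because the comparisons turn on them. The short form that starts at 60 had 2305 reads without a mismatch. The short form that starts 1 base earlier was read as 3 isodecoders, with 1181 reads for T at base 59, 684 for A and 90 for C. The long form that starts at 55 had 449 reads with T at base 59 and 313 with A when it ended at 76, and 424 with each of them when it ended at 75. Capitals mark positions 58 and 59, where the fragment holds them, and the part of the CCA that it keeps.
Positions 60 to 76: tccggctcgaaggaCCA
Positions 59 to 76, isodecoders 2-1 and 3-1: TtccggctcgaaggaCCA
Positions 59 to 76, isodecoder 1-1: AtccggctcgaaggaCCA
Positions 59 to 76, isodecoder 4-1: CtccggctcgaaggaCCA
Positions 61 to 76: ccggctcgaaggaCCA
Positions 55 to 76, isodecoders 2-1 and 3-1: tcgATtccggctcgaaggaCCA
Positions 55 to 76, isodecoder 1-1: tcgAAtccggctcgaaggaCCA
Positions 55 to 75, isodecoders 2-1 and 3-1: tcgATtccggctcgaaggaCC
Positions 55 to 75, isodecoder 1-1: tcgAAtccggctcgaaggaCC

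**Figure D1:**
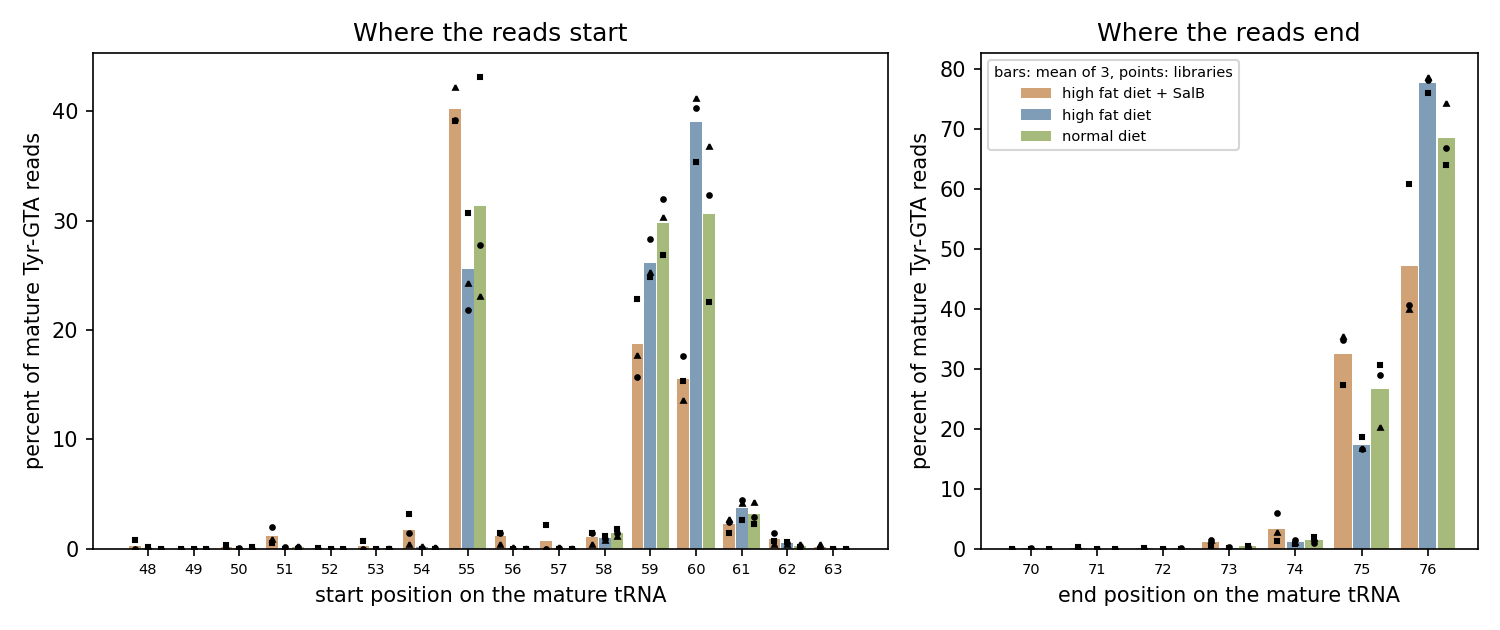
Percent of mature Tyr-GTA reads by start position (left) and end position (right) on the mature tRNA, with bars for the mean of 3 libraries and points for libraries, in the order SalB, high fat diet, normal diet. Starts gather at 55, 59 and 60 and ends at 75 and 76, and the bars at 60 and at 76 are lower with SalB than in the other 2 groups.

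The 5′ reads were mostly of one kind, and the internal reads of several. Of the 271 reads that began at position 1, 230 (84.9%) ended at position 16, in the D-loop. None of the 271 had a length of 28 to 36 bases, as 5′ tiRNAs have, which allows a share of up to 1.11% of them. The most abundant 5′ fragment, from isodecoders 3-1 and 4-1, had 141 reads.
Positions 1 to 16: ccttcgatagctcagc
Of the 276 internal reads, 80 (29.0%) ran from position 3 to 16, the same stop in the D-loop, 132 (47.8%) started between positions 6 and 49, among them 45 that ran from 43 to 56, and 42 ended at 70 to 73. The anticodon was covered by 10 reads in all, every one of them with the letters GTA. The cDNA was cut from a gel in a narrow size range before sequencing, and no read exceeded 36 bases on the mature tRNA, so longer pieces were not measured here.

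Mature Tyr-GTA reads were scarce in serum with SalB and took a like share in both other groups. They made up 0.328%, 0.878% and 0.548% of tRNA reads with SalB, against 3.39%, 2.97% and 2.73% on high fat diet and 2.61%, 2.55% and 2.91% on normal diet. Every SalB library lay below every library of the other groups, which overlapped each other. The second SalB library was the highest of its group, and it also held many reads of 1 leucine precursor: without those its share was 1.52%, still below the other groups. As a whole family, on a scale of normalised reads per 1000000 reads (RPM), the mature level averaged 8019 ± 6599 with SalB, 27322 ± 2463 on high fat diet and 25618 ± 3780.2 on normal diet (SD, n = 3 each).

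The family level fell with SalB, with a log2 fold change of −2.05 against high fat diet (SE 0.45, limma-voom with Benjamini-Hochberg adjustment, adjusted p = 0.0117) and of −1.96 against normal diet (limma-voom adjusted p = 0.0117). Of the 103 families tested, 14.6% were called lower with SalB than on high fat diet and 10.7% lower than on normal diet. Between high fat diet and normal diet the difference was 0.09 (limma-voom adjusted p = 0.965), with 0% of families called lower. The SalB libraries enter both comparisons, which are therefore not separate evidence. This sum holds the fragment whose lower level was known beforehand, so its p-values are drawn partly from values behind the choice of the family. Levels without that fragment follow.

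The lower level lay in the 3′ reads. Their levels in RPM were 3163, 13072 and 3971 with SalB, against 28103, 25127 and 25101 on high fat diet and 23012, 23537 and 27429.6 on normal diet. The groups with SalB and without it did not overlap, and the second SalB library was the highest of its group. The 3′ sum fell with SalB, with a log2 fold change of −2.23 against high fat diet (SE 0.44, limma-voom adjusted p = 0.00589) and of −2.15 against normal diet (limma-voom adjusted p = 0.00541). It also holds the fragment known beforehand, so these p-values are drawn partly from values behind the choice of the family. Among all sums by family and origin, 12.4% were called lower with SalB than on high fat diet and 14.1% lower than on normal diet. Without the reads that start at position 60, the 3′ level was 2477, 10826 and 3278 with SalB, 16327, 15795 and 14392 on high fat diet, and 15299, 18029.7 and 16954 on normal diet, so that the groups with and without SalB still did not overlap. The ratio of means was then 0.356 for SalB over high fat diet and 0.330 for SalB over normal diet. The 3′ sum without these reads was not tested.

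Some other tRNA families also had lower 3′ levels with SalB. Of the 42 other nuclear 3′ sums tested, 12 fell and 1 rose with SalB against high fat diet, with a median log2 fold change of −0.71, and 16 fell and 1 rose against normal diet, with a median of −0.81.

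No change was called in the 5′ and internal levels. The 5′ level was 495, 415 and 646 with SalB, 544, 819.7 and 621 on high fat diet and 339, 462 and 589 on normal diet, and the groups overlapped. Its difference was −0.35 for SalB against high fat diet (limma-voom adjusted p = 0.465) and 0.13 against normal diet (adjusted p = 0.800). The internal level was 229, 1128 and 462 with SalB, 559, 409.9 and 236 on high fat diet and 466, 369 and 455 on normal diet, with differences of 0.39 (adjusted p = 0.634) and 0.23. In the second SalB library 76 of the 132 internal reads that start between positions 6 and 49 were found, and without that library both internal differences turn negative (−0.39 and −0.53). A p that misses the threshold does not show that the 5′ and internal levels were equal.

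**Figure D2:**
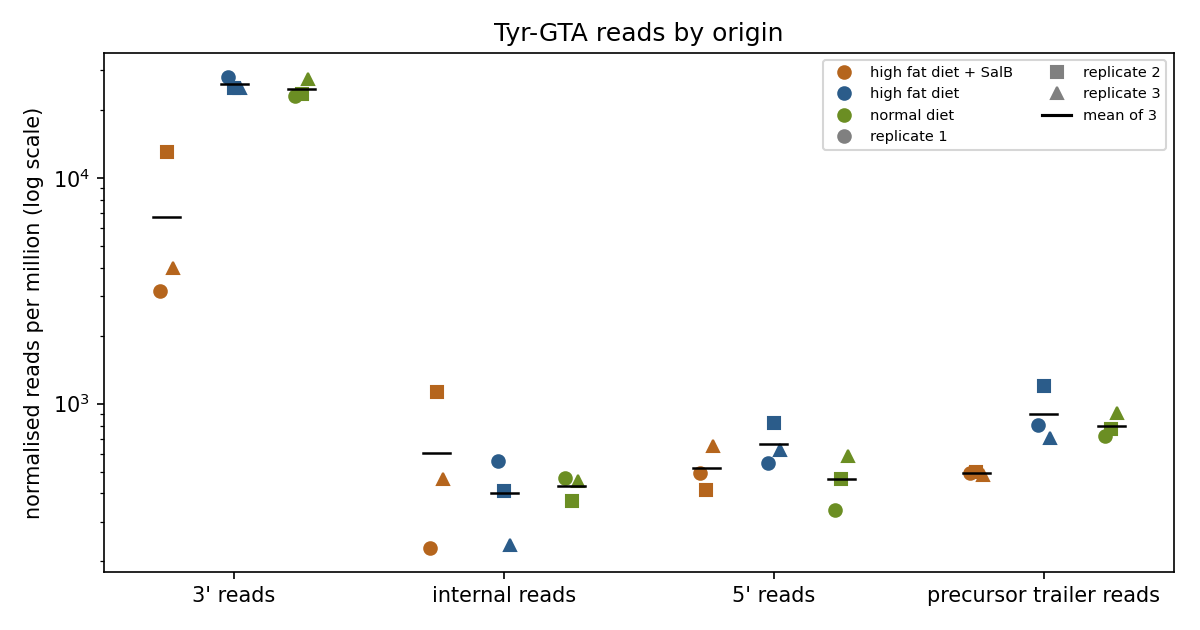
Normalised RPM (log axis) of Tyr-GTA reads by origin, with 1 point per library and a line at the mean of 3, in the order SalB, high fat diet, normal diet. The 3′ reads with SalB lie at 3163 to 13072, all below the 23012 to 28103 of the other groups, while 5′ and internal reads overlap.

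Within the mature reads the make-up shifted accordingly. The share of 3′ reads was 81.4%, 89.4% and 78.2% with SalB, 96.2%, 95.3% and 96.7% on high fat diet, and 96.6%, 96.6% and 96.3% on normal diet. The share of 5′ reads was 12.7%, 2.84% and 12.7% with SalB, 1.86%, 3.11% and 2.39% on high fat diet, and 1.42%, 1.89% and 2.07% on normal diet. The 3′ shares did not overlap between SalB and either other group (exact two-sided permutation p = 0.1 for both, adjusted 0.18 over 18 tests of shares). The 3′ reads hold the fragment known beforehand, so these comparisons too are drawn partly from values behind the choice of the family. With 3 libraries against 3 an exact test cannot go below 0.1, so no share in this text can pass a threshold of 0.05.

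Levels with SalB were lower at every common start, and the ratios differed between the starts. Reads that start at 60 had 686, 2246 and 693 RPM with SalB, 11775, 9332 and 10708 on high fat diet, and 7713, 5507 and 10476 on normal diet. Reads that start at 59 had 591, 3342 and 900.3 with SalB, 8233, 6558 and 6575 on high fat diet, and 7628, 6553 and 8637 on normal diet. Reads that start at 55 had 1524, 5695 and 2124 with SalB, 6354, 8039.5 and 6297 on high fat diet, and 6548, 10430.1 and 6529 on normal diet. At each of these starts all SalB libraries lay below all others, and the second SalB library was the highest of its group. The ratio of means with SalB over high fat diet was 0.452 at start 55, 0.226 at start 59, 0.114 at start 60 and 0.146 at start 61, and without the second SalB library it was 0.264, 0.105, 0.0650 and 0.114.

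By the end, the comparison for start 55 depended on the group it was made with, and this rested on the second SalB library. Among reads that start at 59 or 60, the ratio with SalB over high fat diet was 0.140 for reads ending at 76 and 0.309 for those ending at 75, and over normal diet it was 0.163 and 0.312. Among reads that start at 55, the ratio over high fat diet was 0.354 for reads ending at 76 and 0.580 for those ending at 75, whereas over normal diet it ran the other way, at 0.491 and 0.335. Without the second SalB library the ratios for reads ending at 76 were 0.0645 for starts 59 or 60 and 0.149 for start 55 over high fat diet. For start 55 and end 75 the ratio over high fat diet was then 0.402. Over normal diet the ratios for start 55 were then 0.206 for end 76 and 0.232 for end 75, and the order no longer ran the other way. These ratios are descriptions, and no test compares them.

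Reads that start at 59 or 60 made up 40.4%, 42.8% and 40.1% of 3′ reads with SalB, against 71.2%, 63.2% and 68.9% on high fat diet and 66.7%, 51.2% and 69.7% on normal diet. The 3 SalB libraries, the second included, lay close together and below all others, and the fragment known beforehand is among these reads (exact permutation p = 0.1 against each group, adjusted 0.18). Reads that start at 55 made up 48.2%, 43.6% and 53.5% with SalB, against 22.6%, 32.0% and 25.1% on high fat diet and 28.5%, 44.3% and 23.8% on normal diet, where 1 library reached the SalB range.

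Of the 781 members, 22 had enough reads to be tested singly, and these held 73.4% of the members' reads. Of the 22, 13 reached the read minimum in no SalB library and so passed the filter only through the diet groups, where they are high. The counts that follow describe the fragments that passed and are no evidence about the family. Against high fat diet 10 of the 22 were called lower with SalB and 0 higher, beside 16.6% of all 733 tested fragments called lower and 17.6% called higher. The 10 include the 2 fragments known beforehand, and without them it was 8 of 20. Among the 8 fragments that were not known beforehand and reached the minimum in at least 1 SalB library, 3 fell. These are the 59 to 76 forms with T and with A, and the 55 to 76 form of isodecoder 1-1. The filter asked for 3 libraries, and each of the 8 reached the minimum in only 1 or 2 SalB libraries. They therefore also needed diet libraries to pass, which limits the p-values given for them below. The fragments that start at 59, 60 or 61 and end at 76 and were not known beforehand numbered 7, with log2 fold changes of −3.17 to −1.98. The 4 that start at 59 or 60 and end at 75 had −1.83 to −0.96, the 3 that run from 55 to 76 had −2.52 to −0.69, and the 5 that run from 55 to 75 had −1.40 to −0.06.

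**Figure D3:**
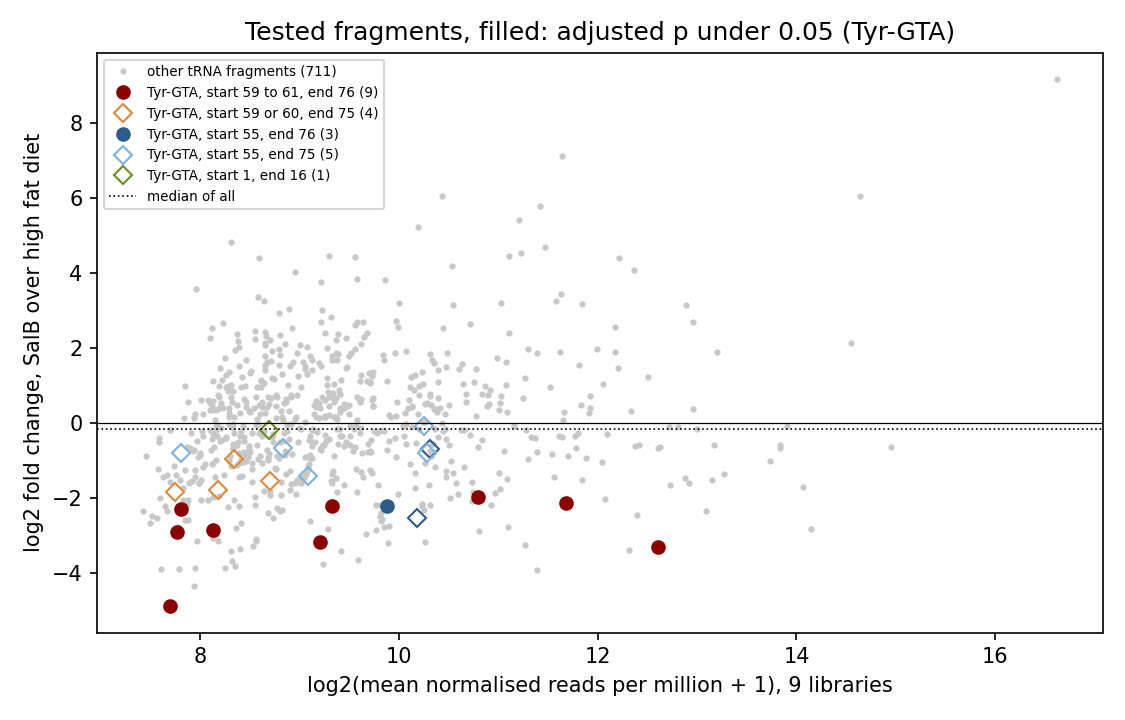
Log2 fold change of SalB over high fat diet against the mean level of the 9 libraries for all 733 tested fragments, with the 22 Tyr-GTA fragments coloured by start and end and filled where the limma-voom adjusted p was under 0.05. The lowest Tyr-GTA point is the A73C variant, whose SalB libraries hold 0 reads, so that its position is no bound, and those from 55 to 75 lie between −1.40 and −0.06.

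Levels of single fragments are scaled on the fragments that passed the filter, so they cannot be set beside the levels of the sums above. The fragment from 60 to 76 was the most abundant Tyr-GTA fragment in every high fat diet library. It had 583, 3232 and 413 RPM with SalB (21, 137 and 11 reads), against 10971, 8589.5 and 9326 on high fat diet (487, 198 and 323 reads) and 7093, 5758 and 10304 on normal diet (252, 135 and 741 reads). All 3 SalB libraries were low, and the highest of them stayed below the lowest of the other groups. Its log2 fold change of SalB over high fat diet was −3.31, given without a test because it was known beforehand. Against normal diet, a comparison that shares the SalB libraries, it was −2.98.

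The fragments that begin 1 base to either side had lower levels with SalB too. The fragment from 61 to 76 had 139, 236 and 188 RPM with SalB, against 1194, 781 and 808 on high fat diet and 675, 639.7 and 1126 on normal diet. The 3 SalB libraries were close together and far below the others. Its log2 fold change was −2.22 against high fat diet (SE 0.48) and −2.03 against normal diet, given as a description because this fragment passed the filter only through the diet groups.

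From 59 to 76 the 3 isodecoder versions were followed separately as far as base 59, the first base of the read, was read correctly. The version with T at base 59 had 389, 3539 and 488 RPM with SalB, against 4978, 3861 and 3378 on high fat diet and 4363, 3966 and 4575 on normal diet. Here the second SalB library exceeded 1 high fat diet library, so the groups overlapped, and it fell by 2.13 on the log2 scale (SE 0.63, limma-voom adjusted p = 0.0224). The version with A had 222, 1604 and 413 with SalB, against 2771, 1692 and 2252 on high fat diet and 1942, 1706 and 3449 on normal diet, and it fell by 1.98 (SE 0.59, limma-voom adjusted p = 0.0235). The groups did not overlap, by a narrow margin in the second SalB library. The rarest version, with C, had 0, 3 and 2 reads with SalB, against 12, 9 and 13 on high fat diet and 14, 15 and 22 on normal diet. It passed the filter only through the diet groups, and its log2 fold change of −2.86 (SE 0.78) is a description. Against normal diet the T and A versions fell too, with log2 fold changes of −2.23 and −2.04 (limma-voom adjusted p = 0.0157 and 0.0177). Without the first SalB library the log2 fold changes against high fat diet were −1.44 and −1.29 for the T and A versions, and neither passed (limma-voom adjusted p = 0.126 and 0.111). The T and A versions also missed the threshold without the third SalB library or the first high fat diet library, as did T without the second and A without the third high fat diet library (limma-voom adjusted p = 0.0506 to 0.0883). Against normal diet, T (−1.50 and −1.69) and A (−1.31 and −1.76) missed it without the first or the third SalB library, and A (−1.67) without the third normal diet library.

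Variants of these fragments with 1 changed base near the end were tested as sequences of their own. They are shown because their reads were few with SalB. All 4 passed the filter only through the diet groups, so their fold changes against SalB are descriptions. Capitals mark the last 3 bases, as before.
Positions 60 to 76, A76G: tccggctcgaaggaCCG
Positions 60 to 76, A76T: tccggctcgaaggaCCT
Positions 59 to 76, A76G, isodecoders 2-1 and 3-1: TtccggctcgaaggaCCG
Positions 60 to 76, A73C: tccggctcgaaggcCCA
The A76G variant from 60 had 2, 14 and 1 reads with SalB, against 61, 17 and 42 on high fat diet and 16, 6 and 62 on normal diet. Its log2 fold change was −3.17 against high fat diet and −2.10 against normal diet. The A76T variant had 1, 3 and 3 reads with SalB, against 15, 5 and 18 on high fat diet and 4, 4 and 32 on normal diet, with a log2 fold change of −2.28 against high fat diet. The A76G variant from 59 had 1, 4 and 0 reads with SalB, against 22, 7 and 6 on high fat diet and 7, 5 and 32 on normal diet, with a log2 fold change of −2.90 against high fat diet. These 3 variants had a lower level in every SalB library than in any high fat diet library.

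The long forms gave a mixed picture. The fragment from 55 to 76 of isodecoder 1-1 had 83.3, 849 and 338 RPM with SalB, against 1216, 1822 and 1501 on high fat diet and 732, 981 and 946 on normal diet. It fell by 2.21 against high fat diet (SE 0.61, limma-voom adjusted p = 0.0166), while the second SalB library reached into the range of normal diet (−1.47, adjusted p = 0.0747). Without the first SalB library the difference from high fat diet was −1.27 (limma-voom adjusted p = 0.0518), and without the second that from normal diet passed at −2.36 (limma-voom adjusted p = 0.0178). The same stretch of isodecoders 2-1 and 3-1 had 222, 3633 and 488 with SalB, against 1284, 1128 and 1328 on high fat diet and 759.9, 1450.1 and 1168 on normal diet. Its second SalB library was the highest of all 9 and the other 2 SalB libraries were the lowest, and the difference of −0.69 did not pass (SE 0.75, limma-voom adjusted p = 0.484) and turned to 0.26 without the first SalB library. Without the second SalB library it passed at −1.88 (limma-voom adjusted p = 0.0133).

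Ending at 75, the long form of isodecoder 1-1 had 305, 1132 and 600.0 RPM with SalB, against 1014, 1215 and 982 on high fat diet and 1886, 2474 and 1627 on normal diet. The SalB and high fat diet libraries overlapped (−0.81, limma-voom adjusted p = 0.168), whereas all SalB libraries lay below those of normal diet and the fragment fell by 1.67 (SE 0.43, limma-voom adjusted p = 0.0105). This became −1.09 without the first SalB library, which did not pass (limma-voom adjusted p = 0.0557). For isodecoders 2-1 and 3-1 the differences were −0.06 (limma-voom adjusted p = 0.942) and −1.15 (adjusted p = 0.171), with 333, 2713 and 375 RPM with SalB, 698, 1301 and 519.7 on high fat diet and 1492, 2047 and 1488 on normal diet. Its second SalB library was again the highest of all 9, and without it the difference from normal diet passed at −2.07 (limma-voom adjusted p = 0.00747). The 5′ fragment from 1 to 16 stayed in one range throughout, at 333, 401 and 488 with SalB, 383, 521 and 491 on high fat diet and 197, 384 and 515 on normal diet. Its differences were −0.18 and 0.17 (limma-voom adjusted p = 0.73 and 0.774).

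Against normal diet 9 of the 22 fragments were called lower with SalB and 0 higher, beside 18.6% of all tested fragments called lower and 20.5% called higher. Without the 2 known beforehand it was 7 of 20. The 8 fragments that were not known beforehand and reached the minimum in at least 1 SalB library had also needed diet libraries to pass. Among them 3 fell, the 59 to 76 forms with T and with A and the 55 to 75 form of isodecoder 1-1. The C75T variant of the last was called too, but it passed the filter only through the diet groups. It had 2, 14 and 6 reads with SalB, against 15, 13 and 20 on high fat diet and 30, 33 and 38 on normal diet, and its log2 fold changes were −2.19 against normal diet and −1.40 against high fat diet.
Positions 55 to 75, C75T, isodecoder 1-1: tcgAAtccggctcgaaggaCT

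High fat diet alone left Tyr-GTA fragments without a called change: 0 of 22 passed against normal diet by limma-voom, as did 0% of all tested fragments. At an unadjusted p under 0.05 there were 2 of the 22 and 87 of the 733. These are the A76G variant from 60, with a log2 fold change of 1.07 (limma-voom adjusted p = 0.417), and the A73C variant described below (limma-voom adjusted p = 0.308). The fragments with the largest negative differences were the 55 to 75 forms, at −1.09 for isodecoders 2-1 and 3-1 and −0.87 for 1-1 (limma-voom adjusted p = 0.547 and 0.424). The 55 to 76 form of isodecoder 1-1 went the other way, at 0.75 (limma-voom adjusted p = 0.616).

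Position 58, the T-loop adenosine, was often read as another base where the next base is T, and rarely elsewhere. In isodecoders 2-1 and 3-1, 487 of 1946 reads that cover it had a substitution (25.0%, 95% Wilson interval 23.2% to 27.0%), and 475 of these 487 were A58T. In isodecoder 1-1, with A at base 59, 5 of 1246 did (0.401%), in 4-1 with C it was 4 of 90, and in 5-1 with G it was 0 of 16. The substitution is most visible in the fragment from 55 to 76, whose A58T version had 367 reads beside 449 reads of the unchanged one.
Positions 55 to 76, A58T, isodecoders 2-1 and 3-1: tcgTTtccggctcgaaggaCCA
Other nuclear tRNAs with T at both 59 and 60 had 15.3% of 30053 reads substituted, most of them glycine tRNA (15.6% of 29175), and those outside glycine and alanine had 3.14% of 861. With A at 59 and T at 60 the share in other families was 2.24% of 16176 reads. A read with a substitution can fall to 1 family where its unchanged form is shared by several and left uncounted, which limits comparisons between families.

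Per library, A58T made up 2 of 52, 99 of 537 and 5 of 51 reads of isodecoders 2-1 and 3-1 with SalB, 85 of 244, 49 of 148 and 48 of 169 on high fat diet, and 31 of 166, 75 of 204 and 81 of 375 on normal diet. All substitutions at 58 in these isodecoders came to 3.85%, 19.4% and 9.80% with SalB, against 35.2%, 34.5% and 29.0% on high fat diet and 19.3%, 36.8% and 22.1% on normal diet. The SalB libraries lay below those of high fat diet (exact permutation p = 0.1, the smallest that 3 against 3 allow), and the second of them reached the normal diet range (exact permutation p = 0.2). The first and the third SalB libraries rest on about 50 reads each, so their intervals are wide. The A58T fragment from 55 to 76 had 27.8, 1392 and 188 RPM with SalB, against 1644, 1822 and 1184 on high fat diet and 647, 2772 and 807 on normal diet. Its difference of −2.52 did not pass (SE 0.98, limma-voom adjusted p = 0.0674), and it did pass in 6 alternative fits, among them that without the second SalB library (−3.93, limma-voom adjusted p = 0.0223).

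**Figure D4:**
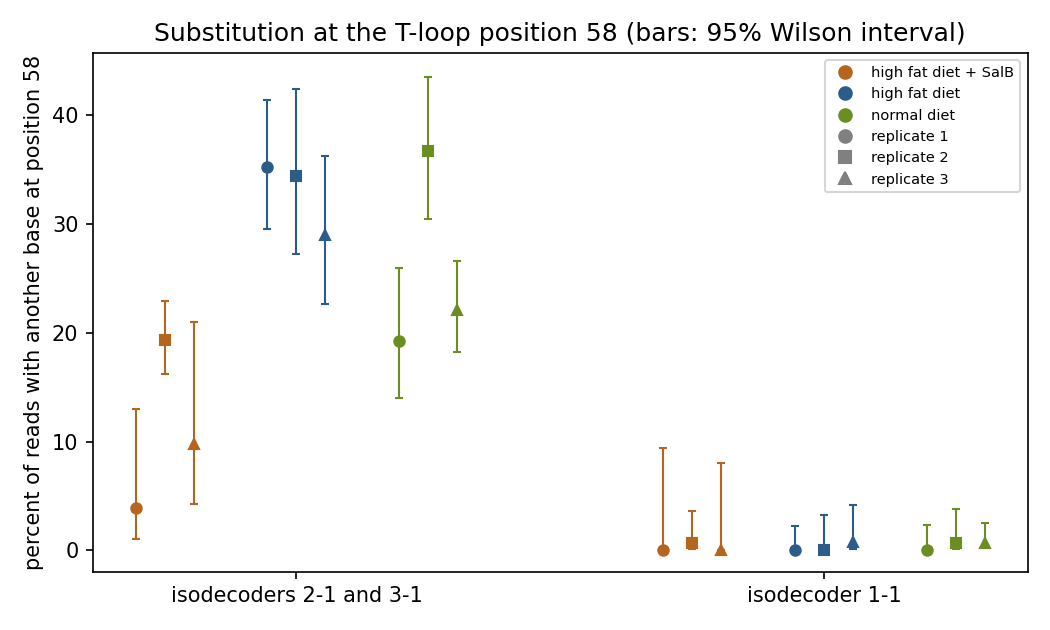
Percent of reads with another base than A at position 58, per library with its 95% Wilson interval, for isodecoders with T at base 59 (left) and with A at base 59 (right), in the order SalB, high fat diet, normal diet. Isodecoders 2-1 and 3-1 lie at 3.85% to 19.4% with SalB and at 19.3% to 36.8% in the other groups, and isodecoder 1-1 stays near 0 in all 9 libraries.

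Among the 3′ reads that cover base 59, the shares with T and with A did not separate the groups. T at base 59 was read in 58.2%, 73.6% and 51.5% of them with SalB, against 59.7%, 58.9% and 55.6% on high fat diet and 55.7%, 59.4% and 55.7% on normal diet, and the groups overlapped. A at base 59 had 38.5%, 24.7% and 44.8% with SalB, against 35.8%, 35.4% and 37.8% on high fat diet and 39.0%, 35.8% and 40.7% on normal diet. The second SalB library held the highest share of T and the lowest of A among the 9. C at base 59 had 3.28%, 1.52% and 3.73% with SalB, all below the 3.76%, 4.43% and 4.86% on high fat diet. On normal diet it had 3.35%, 4.06% and 2.91%. The rare G at base 59 was read in 2 of 1243 such reads with SalB, 24 of 2049 on high fat diet and 27 of 2766 on normal diet, and the SalB libraries lay below all others. Among reads of any origin that cover 58 and 59, 12 of the 16 with G came from the second SalB library. The C and G shares rest on few reads.

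Fewer 3′ reads reached position 76 with SalB than on high fat diet. Position 76 was reached by 50.0%, 68.0% and 51.2% of 3′ reads with SalB, against 81.3%, 79.7% and 81.4% on high fat diet and 69.2%, 66.3% and 77.2% on normal diet. Of the 7373 reads that end there, 742 have another base than A at 76 (7.36% with SalB, 11.6% on high fat diet and 9.43% on normal diet), so that reaching 76 does not always mean a complete CCA. The SalB mean lay 24.4 percentage points below that of high fat diet, with no overlap (exact permutation p = 0.1, adjusted 0.18), while the second SalB library overlapped normal diet (exact permutation p = 0.2). The fragment known beforehand ends at 76, so these comparisons with SalB are drawn partly from values behind the choice of the family. High fat diet lay 9.90 points above normal diet, again with no overlap (exact permutation p = 0.1, adjusted 0.18). Among reads that start at 55, 27.5%, 54.4% and 37.0% reached 76 with SalB, 58.9%, 56.9% and 60.9% on high fat diet, and 29.4%, 39.5% and 41.6% on normal diet. Among reads that start at 59 or 60, 76.1%, 82.3% and 66.7% did with SalB, 87.6%, 90.7% and 88.7% on high fat diet, and 85.5%, 87.5% and 88.7% on normal diet. Whether the diet difference differs between these forms was not tested.

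**Figure D5:**
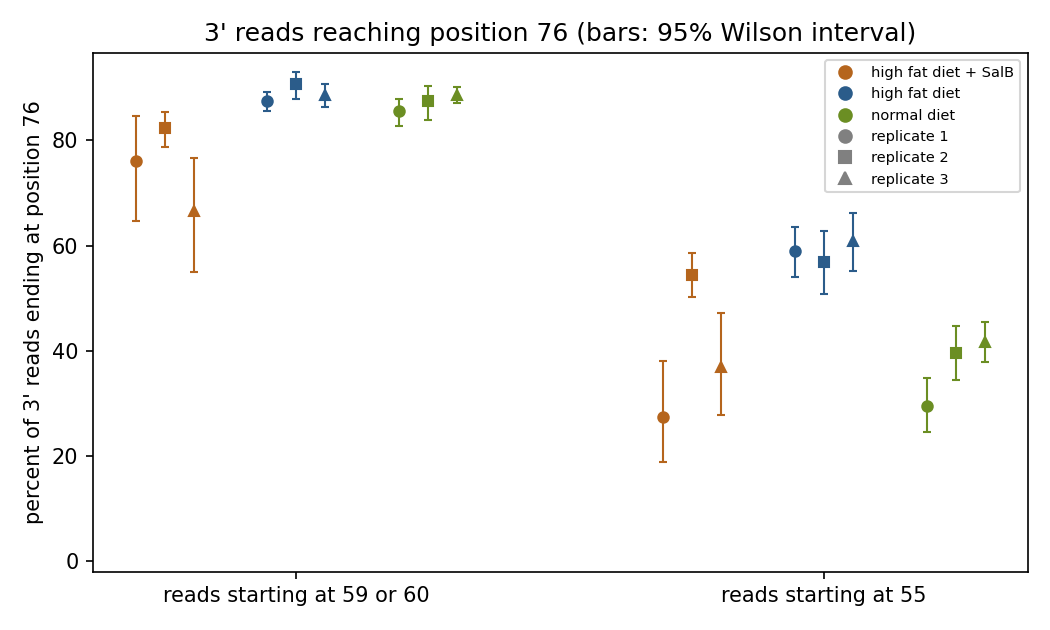
Percent of 3′ reads that end at position 76, per library with its 95% Wilson interval, for reads that start at 59 or 60 (left) and at 55 (right), in the order SalB, high fat diet, normal diet. For the long form the high fat diet libraries lie at 56.9% to 60.9% and the normal diet libraries at 29.4% to 41.6%, while for the short form these 2 groups overlap.

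Some reads that stop at 75 end in CT in place of CC, and these are letters that a precursor also has. The mature sequences from 55, 59 or 60 to 75 with C75T, from 2-1 and 3-1 where base 59 is covered, match the 2-1 precursor without a mismatch, because its trailer begins with CT. In all, 368 mature reads of 11 sequences (3.54% of mature reads) have a mismatch as mature tRNA and none as precursor, so their origin cannot be told apart. The named C75T variant of isodecoder 1-1 is not among them.

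The discriminator base at 73 stands just before the CCA and is read by the enzyme that loads the amino acid. It was seen changed less often in every SalB library than in any high fat diet library. SalB and normal diet overlapped, since the third SalB library (1.14%) lay above the third normal diet library (0.976%). Among reads that end at 76 it was substituted in 0 of 83, 3 of 835 (0.359%) and 1 of 88 with SalB, in 47 of 1470 (3.20%), 23 of 635 (3.62%) and 34 of 954 (3.56%) on high fat diet, and in 24 of 751 (3.20%), 11 of 507 (2.17%) and 20 of 2050 (0.976%) on normal diet. The count of 0 in the first SalB library allows a share of up to 3.61%, so the second SalB library (95% Wilson interval 0.122% to 1.05%) carries most of the information for that group. The commonest change was A73C. Its form from 60 to 76 is the variant known beforehand, so the difference at base 73 is drawn partly from values behind the choice of the family. As the fragment from 60 to 76, A73C had 0, 0 and 0 reads with SalB, 22, 8 and 13 on high fat diet, and 12, 6 and 4 on normal diet. Its level was 406 ± 78.9 RPM on high fat diet and 216 ± 145 on normal diet (SD, n = 3 each), with a log2 fold change of 1.77 between them. A fitted fold change against a group at 0 is no bound, and none is stated for SalB.

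Precursor reads were few and came almost only from the trailer side. They numbered 27, 61 and 22 with SalB, 54, 38 and 33 on high fat diet, and 34, 26 and 90 on normal diet. Of the 385, 359 (93.2%) ran from the second exon into the trailer, 7 from the leader into the first exon, 5 lay in the trailer alone, 2 in the leader and 12 within exons and intron. A single precursor, 2-1, accounted for 291 of them (75.6%). Of its 287 reads that run into the trailer, 204 started at the position that becomes 58, 59 or 60 of the mature tRNA, at or next to the starts of the short mature form, and 106 ended at base 7 of the trailer. The 5 most abundant precursor sequences, all from 2-1, are shown with the trailer in capitals, because 4 of them start at or next to the short mature fragments and run on into the trailer. The fifth starts at mature position 55, like the long form, and carries a substitution at the position that becomes 58. It also equals the mature 55 to 75 form of isodecoders 2-1 and 3-1 with both A58T and C75T, so its origin cannot be told apart.
Precursor, 43 reads: ttccggctcgaaggaCTTCGTG
Precursor, 15 reads: attccggctcgaaggaCTTCGTG
Precursor, 14 reads: ttccggctcgaaggaCTTCGT
Precursor, 9 reads: tccggctcgaaggaCTTCGTG
Precursor, 7 reads, A114T on the precursor: tcgtttccggctcgaaggaCT

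The first of these had 2, 7 and 4 reads with SalB, 6, 1 and 4 on high fat diet, and 6, 4 and 9 on normal diet, and no precursor sequence had enough reads to be tested alone. The trailer sum had 495, 500.3 and 485 RPM with SalB, against 808, 1198 and 707 on high fat diet and 720.4, 769 and 909 on normal diet. All SalB libraries lay below all others, the second included, but the difference did not pass, at −0.81 against high fat diet (SE 0.29, limma-voom adjusted p = 0.0604) and −0.69 against normal diet (adjusted p = 0.0851). It passed against high fat diet under 5 of the alternatives. As a share of tRNA reads, precursors made up 0.0457% ± 0.00816 with SalB, 0.102% ± 0.0305 on high fat diet and 0.0859% ± 0.00821 on normal diet (SD, n = 3 each). Counted only where a read had at least 3 mismatches to every mature reference, which applies to 294 of the 385, these became 0.0397%, 0.0647% and 0.0680%.

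Per 100 mature reads there were 13.2, 4.44 and 10 precursor reads with SalB, against 2.87, 4.55 and 2.72 on high fat diet and 3.02, 3.28 and 3.27 on normal diet. The first and the third SalB libraries were high, and the second lay within the range of high fat diet. The trailer sum averaged 494 ± 7.93 RPM with SalB and 904 ± 259 on high fat diet (SD, n = 3 each). The mature 3′ sum averaged 6735 RPM with SalB and 26110.2 on high fat diet. Whether the mature and the trailer sum differ in their response was not tested.

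The mitochondrial tyrosine tRNA, a separate gene of the same anticodon, gave 68 reads of 33 sequences. They numbered 11, 27 and 9 with SalB, 4, 5 and 3 on high fat diet, and 1, 3 and 5 on normal diet, or 177, 173 and 224 per 1000000 tRNA reads with SalB, 72.1, 177 and 67.5 on high fat diet, and 23.3, 96.6 and 52.8 on normal diet. The second high fat diet library reached the SalB range. These reads were too few to be tested.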

How the data were processed

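Small RNA from serum was made into libraries with a commercial kit for tRNA fragments, cut from a gel by size and sequenced on a NextSeq 500, per the labels' protocols. The submitters' processing notes name FastQC, cutadapt, Bowtie, edgeR and mm10 without versions. The deposited tables are Bowtie alignments to mature and precursor tRNA, with at most 1 mismatch and identical reads collapsed. The read count stands in each read name, so the deposited count per sequence was taken from there, each name once. Sequences run from 14 to 40 bases, and none aligned to both mature and precursor tRNA in the tables.

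Reads were scaled by the trimmed mean of M values (factors 0.472 to 1.21), and levels are normalised reads per 1000000 (RPM) of the reads that passed the filter, which differ between single fragments and sums. A feature was kept with a scaled 10 reads (at 44415 per library, the median) in at least 3 libraries, and 15 reads in all. Differences were tested with limma-voom (limma 3.58.1, R 4.3.3), fitted over all 9 libraries and all tRNA features and adjusted by Benjamini-Hochberg at 0.05. Shares were tested with two-sided exact permutation tests (scipy 1.17.1). Intervals are 95% Wilson intervals, and they and the floor of 3 reads cover counting error only, since reads without molecular identifiers are not independent molecules. The fit was tested on simulated counts with the same spread in every library, so the test does not cover the wider spread among the SalB libraries. Named are the 10 most abundant mature and 5 most abundant precursor sequences and each one called. The members, the rule and the lists were chosen with earlier results of these data known. Alternatives were other scalings, filters, pseudocounts, sample sets, assignments, read lengths, a replicate block and leaving out each library. The omission of the leucine precursor reads and the stricter precursor assignment were added after seeing the data.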

Additional observations from a re-analysis of the deposited data

How the results depend on the processing

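The counts of fragments here include those known beforehand and those that passed the filter only through the diet groups. Against high fat diet 10 fragments were called, and 17 under total counts, 37 with no filter (more fragments tested), 6 under the stricter filter and 5 with mismatch variants merged by position (fewer tested). Leaving out 1 library gave 4 (without the first SalB library) to 12 (without the second), and 6 without the first high fat diet library. Against normal diet 9 were called, and 19 under total counts, 38 with no filter, and 3 (without the first SalB library) to 14 (without the second) with 1 library left out, with 5 without the third. Total counts moved the median log2 fold change of all fragments to −0.84 against high fat diet and −0.75 against normal diet. High fat diet against normal diet gave 0 calls throughout.

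The origin sums called numbered 1 against high fat diet and 2, with the trailer, under RLE size factors, total counts, reads of 16 to 40 bases and without the leucine precursor reads, and 1 to 2 with 1 library left out. Against normal diet there were 2 under total counts. The family sum, which holds the fragment known beforehand, kept its call in all 20 alternatives. It ran from −2.72 to −1.58 against high fat diet and from −2.58 to −1.45 against normal diet. With the replicate block its values were −2.02 and −1.93 (limma-voom adjusted p = 0.0280 and 0.0272), and 10 and 9 fragments were called. Libraries with the same number did not deviate together (r −0.32 to 0.15 over 9 pairs), which cannot exclude that the numbers pair them. The block changed no count of Tyr-GTA calls.

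Some directions turned, all in differences that were not called, and the cause was not tested. For high fat diet minus normal diet in percentage points, the 3′ share was 3.18 and the T-loop mismatch −1.85 over distinct sequences, and with 1 library left out the internal share ran from −0.458 to 0.0453 and the start at 59 or 60 from −0.409 to 8.81. Against high fat diet, with 1 library left out, the log2 fold change ran from −0.38 to 0.041 for 1 to 16, and for isodecoders 2-1 and 3-1 from −0.96 to 0.57 for 55 to 75 and from −1.88 to 0.26 for 55 to 76. The internal sum was −0.071 under total counts and −0.39 to 0.88 with 1 library left out. Against normal diet, 1 to 16 was −0.49 under total counts, −0.14 with no filter and −0.25 to 0.65 with 1 library left out. The 55 to 76 form of 2-1 and 3-1 ran from −1.67 to 0.49. The 5′ sum was −0.24 under total counts, −0.0056 with no filter and −0.085 to 0.28 with 1 library left out, and the internal sum was −0.17 under total counts and −0.53 to 0.77. Precursor shares counted only at 3 or more mismatches from mature tRNA were 0.0647% on high fat diet and 0.0680% on normal diet. The first and the third SalB libraries held 204 and 220 mature reads, which limits the precision of their shares.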
